A study of Arabidopsis thaliana with 6 samples.

Results

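The B-box zinc finger (BBX) family of Arabidopsis thaliana comprises the 32 loci BBX1 to BBX32, and these were read out of 33602 loci by locus identifier. Transcripts were counted in 3 wild-type plants (numbered 22, 23 and 24) and 3 msh1 memory plants (31, 32 and 33), each an individual plant and 1 library. All 6 plants were of the Columbia-0 ecotype, and the memory line is described as isogenic with the wild type. As background, MSH1 encodes an organelle-targeted MutS homologue, and msh1 memory plants descend from plants in which MSH1 was suppressed and keep an altered phenotype without the suppressing transgene. The labels give no transgene, generation, age in days, day length or hour of harvest. After 2 days of stratification at 4 °C the plants grew at 22 °C in light of 120 to 150 µmol m-2 s-1, and were frozen whole at early bolting. The comparison asks which family members differ between the memory line and its wild type.

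BBX proteins carry 1 or a pair of zinc-binding B-box domains near the amino terminus, and many also carry a carboxy-terminal CCT domain, which contacts DNA and partner proteins. They act in light signalling and flowering. Many are targets of the COP1/SPA ubiquitin ligase, work with or against the light-signalling factor HY5, or, like CONSTANS (CO, BBX1), link day length to the florigen gene FT. The family is usually divided into structure groups I (BBX1 to BBX6) and II (BBX7 to BBX13), with a pair of B-boxes and a CCT domain, III (BBX14 to BBX17), with a single B-box and a CCT domain, IV (BBX18 to BBX25), with a pair of B-boxes and no CCT domain, and V (BBX26 to BBX32), with a single B-box only. The annotation notes name a B-box for all 32 loci and a CCT domain for 17, which are BBX1 to BBX17.

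Libraries held between 4060216 and 5806617 counts, with 19614 to 20465 loci read in each. 1 CPM, a read count scaled to the effective library size, stood for 4.33 to 5.75 reads, and a count of 0 allows up to 0.522 to 0.694 CPM (3 counts per library, counting error only). Wild-type plant 23 stood apart, at 68.38 on the first principal component (41.7% of the variance), where the other 5 plants lay between -25.01 and -4.46. Of 10 leaf photosynthesis markers none was at 0 in any plant, while 3 to 7 of 10 root markers and 1 to 8 of 11 flower organ markers were. The flower organ markers summed to 2.52, 5.03 and 7.48 CPM in wild-type plants 22, 23 and 24 and to 6.63, 13.3 and 16.4 CPM in memory plants 31, 32 and 33. No tested flower organ (1), root (3) or leaf photosynthesis (10) marker was called by edgeR, with 0, 0 and 1 at an unadjusted p under 0.05. The smallest p of each list was that of AG (log2 fold change 0.26), GL2 (0.42) and GAPA (0.35). Without plant 24, 1 flower organ marker was called higher, and without plant 23, 1 leaf photosynthesis marker was. AP3, a petal and stamen gene named after its values were seen, had too few reads to test, with 0 in every wild-type plant and 4, 7 and 4 in memory plants. The part of developmental stage in the BBX values was not tested. In whole plants, fewer cells of a type and less RNA per cell cannot be told apart.

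Reads were found for 29 of the 32 BBX loci, and 26 had enough reads to test. The tested members had at least 11 reads in every plant, so none passed through the higher group alone. The other 6 loci had 0 to 3 reads in every plant. BBX9, BBX23 and BBX26 had no read. BBX10 had 1 read, in wild-type plant 24, and BBX20 (BZS1, a component of brassinosteroid signalling) had 1 read each in plants 24, 32 and 33 and 0 in the other 3 plants. CO itself, the activator of FT in long days, had 2 reads in wild-type plant 24 and 0 in the other wild-type plants, against 2, 3 and 1 reads in the memory plants. All 6 values lie at or under the limit of 3 counts, so no difference in CO was detectable from these counts. FT, named here after its values were seen, had no read in any plant.

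3 members fell in the memory plants and none rose. A gene was called where edgeR's quasi-likelihood test gave a Benjamini-Hochberg adjusted p under 0.05 over all tested loci. They were BBX7 and BBX8, a closest pair in group II, and BBX14 of group III. Of the 26 tested members 11.5% were called, where 1.82% of all 16928 tested loci were called. By direction, 1.37% of all tested loci were lower and 0.449% were higher. The median log2 fold change, memory minus wild type, was -0.070 over the tested members and 0.008 over all tested loci. Values of tested members spread to both sides, from -2.29 for BBX8 to 1.31 for BBX3. The groups did not overlap in 15 of 26 members (57.7%), against 19.7% of all tested loci, and 16 of 26 (61.5%) had an unadjusted edgeR p under 0.05, against 12.8%. These shares describe the tested members only, and the members are not independent of each other. The family was also chosen with earlier results of these data known, so the shares are no test of enrichment.

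**Figure D1:**
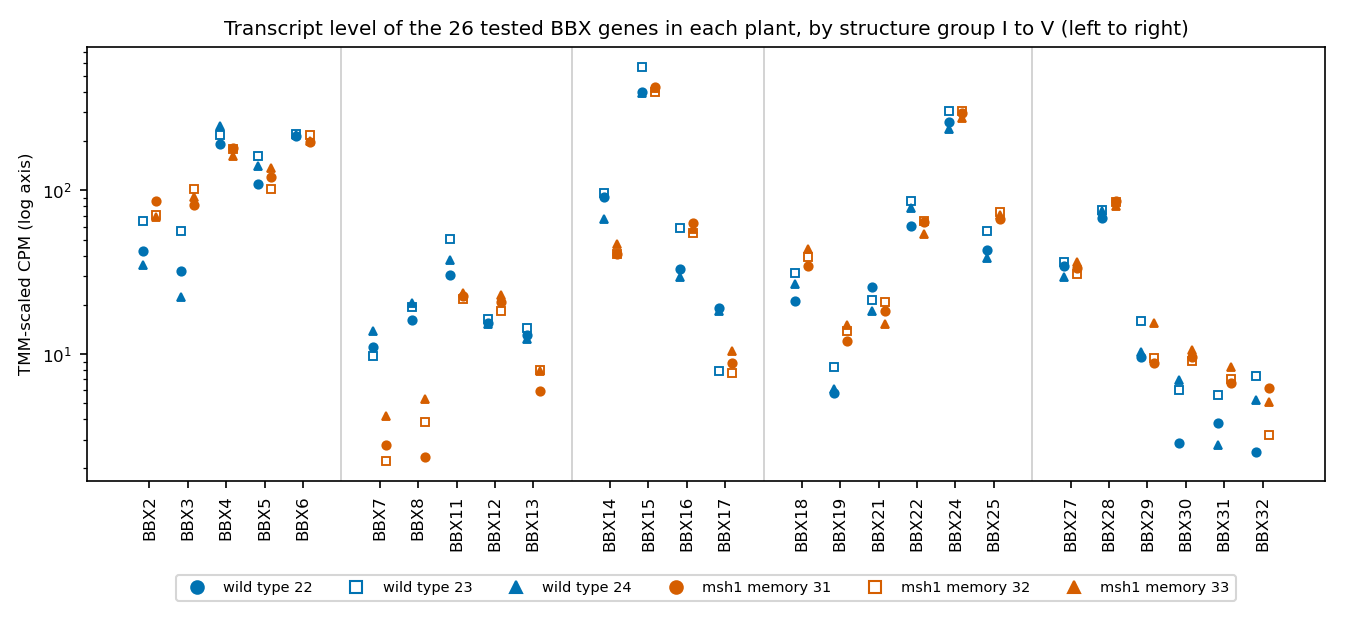
Transcript level of each tested BBX gene in each plant, in TMM-scaled CPM on a log axis, with wild-type plants in blue, memory plants in orange and a symbol per plant. Genes are ordered by structure group. BBX7 and BBX8 lie between 9.67 and 20.5 CPM in wild-type plants and between 2.21 and 5.32 CPM in memory plants, while BBX15 and BBX24 overlap between the groups.

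**Figure D2:**
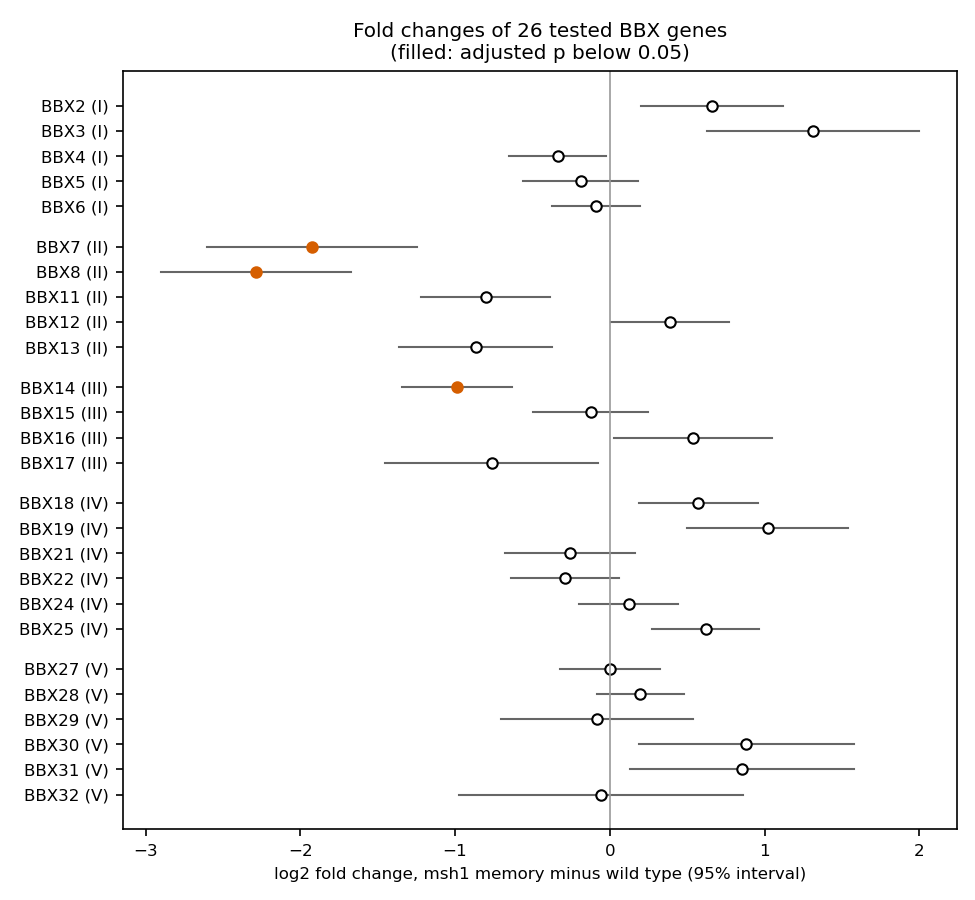
Log2 fold change (memory minus wild type) of the 26 tested BBX genes with 95% intervals, grouped by structure. Filled points are the 3 genes with an edgeR adjusted p under 0.05, BBX7, BBX8 and BBX14. Open points to the right of 0 include BBX2, BBX3, BBX19 and BBX25.

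BBX8 (COL10, AT5G48250; TAIR10.1 chromosome 5, 19561319 to 19563832, minus strand) had the largest fold change of the family. It stood at 16.2, 19.3 and 20.5 CPM in wild-type plants 22, 23 and 24 and at 2.35, 3.82 and 5.32 CPM in memory plants 31, 32 and 33. The lowest wild-type plant was above the highest memory plant by more than the range of either group. The means were 18.7 ± 2.24 and 3.83 ± 1.48 CPM (SD, n = 3 each), a 4.88-fold decrease, with a log2 fold change of -2.29, an SE of 0.281 and an edgeR adjusted p of 0.00238. BBX8 ranked 23 of all tested loci by p. It remained below the threshold with every alternative run and without any 1 plant. BBX8 is known, with BBX7, as a positive regulator of cold acclimation downstream of blue-light receptors.

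BBX7 (COL9, AT3G07650; TAIR10.1 chromosome 3, 2441565 to 2444532, plus strand) is known as a flowering repressor that lowers CO and FT transcripts. It was at 10.98, 9.67 and 13.9 CPM in wild-type plants 22, 23 and 24 and at 2.78, 2.21 and 4.16 CPM in memory plants 31, 32 and 33. The groups were again apart, and within each group plant 24 or plant 33 was highest, as for BBX8. The means were 11.5 ± 2.18 and 3.05 ± 1.002 CPM (SD, n = 3 each), with a log2 fold change of -1.92, an SE of 0.311 and an edgeR adjusted p of 0.00911. Without plant 31 or plant 32 the call ended (edgeR adjusted p = 0.0798 and 0.0728), with log2 fold changes of -1.86 and -1.73.

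The rapid touch and wound genes, a list of 15, summed to 491, 360 and 1327 CPM in wild-type plants 22, 23 and 24. In memory plants they summed to between 184 and 215 CPM. Of the 15, 3 fell (ERF105, ERF5 and SZF2, with log2 fold changes of -3.36, -3.11 and -1.54), where 1.37% of all tested loci fell. All 15 lay below 0, at a median log2 fold change of -2.303. The groups were apart in 11 of them, against 19.7% of all tested loci. None of the 15 was called without memory plant 31, 32 or 33, and 9 were without plant 24. BBX7 and BBX8 were also highest in plant 24 among wild-type plants. Without plant 24 their log2 fold changes were -1.76 and -2.21, and both stayed called (edgeR adjusted p = 0.0294 and 0.0060). Plants 22 and 23 also stood above every memory plant in the summed list, so leaving out plant 24 does not remove the difference in these genes. The part of touch or wounding in the BBX values was not tested.

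The bases before the start of BBX7 and BBX8 are shown because these members moved together and both carry repeats of the evening element, AAAATATCT, a sequence named for its place in promoters of evening-phased clock genes. The sequences are those of the TAIR10.1 genome and RefSeq's annotation, written 5′ to 3′ on the gene's strand, with each evening element in capitals. AGATATTTT is the same element on the other strand. For BBX8 the 250 bases that end at the gene start are given, and for BBX7, and for BBX13, a lower but uncalled group II member, the stretch that holds their elements with 10 bases on either side. None of these windows touches another annotated locus.
BBX8 (chr5:19563833-19564082, minus strand): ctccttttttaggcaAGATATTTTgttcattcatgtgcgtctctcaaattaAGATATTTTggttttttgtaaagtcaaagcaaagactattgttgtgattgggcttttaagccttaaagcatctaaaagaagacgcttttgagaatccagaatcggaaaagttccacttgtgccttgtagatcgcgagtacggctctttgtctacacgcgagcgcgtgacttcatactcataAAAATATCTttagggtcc
BBX7 (chr3:2441028-2441182, plus strand): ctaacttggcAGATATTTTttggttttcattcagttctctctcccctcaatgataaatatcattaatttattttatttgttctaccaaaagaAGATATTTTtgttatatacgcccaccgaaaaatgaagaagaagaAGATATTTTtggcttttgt
BBX13 (chr1:9778280-9778329, minus strand): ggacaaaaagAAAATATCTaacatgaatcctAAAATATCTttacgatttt

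BBX8 held 3 evening elements, whose first bases lie 235, 199 and 18 bases before the start. BBX7 held 3, at 527, 445 and 401 bases, all outside the window of 250 bases that was set for every gene. BBX13 held 2, at 276 and 255 bases. Within 250 bases the element was present in 3 of 32 members (BBX3, BBX8 and BBX24), where 2.36% of 27443 protein-coding genes held it. Within 1000 bases, a window added after the values were seen, 8 of 32 members held it (BBX3, BBX7, BBX8, BBX13, BBX22, BBX24, BBX28 and BBX29), where 7.24% of genes did.

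Members with the element did not share a direction. The 5 other members are shown with 10 bases on either side, since their values differ from those of BBX7 and BBX8.
BBX3 (chr3:489638-489666, minus strand): ataagttaccAAAATATCTtcttgttact
BBX22 (chr1:29566395-29566423, plus strand): taattttgggAAAATATCTttttcaaaat
BBX24 (chr1:1830017-1830045, minus strand): gaatataataAAAATATCTaaaggtagga
BBX28 (chr4:13675134-13675162, plus strand): ctctcccaaaAAAATATCTcgaaactgaa
BBX29 (chr5:22115882-22115910, minus strand): taaccgcataAAAATATCTgatgaaacat
Their log2 fold changes were 1.31 (BBX3), -0.29 (BBX22), 0.12 (BBX24), 0.20 (BBX28) and -0.08 (BBX29), none of them called. The BBX22 window lies in the neighbouring locus AT1G78590. BBX14, the third called member, held none of the 3 longer motifs searched within 1000 bases.

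The other motifs, searched on both strands, were the CCA1 binding site AAAAATCT, the G-box CACGTG and the ACGT core, which every G-box contains. No evening element contains the CCA1 binding site. Within 250 bases they were found in 3 members (BBX11, BBX26 and BBX28; 6.69% of all genes), 4 members (BBX5, BBX9, BBX10 and BBX30; 6.49%) and 14 members (44.1%). Within 1000 bases they were found in 11, 9 and 25 members, against 21.1%, 14.8% and 85% of all genes. BBX11, which was lower but uncalled, held 2 CCA1 binding sites, at 224 and 139 bases before its start. A match describes the letters in a window and not binding by a factor.

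**Figure D3:**
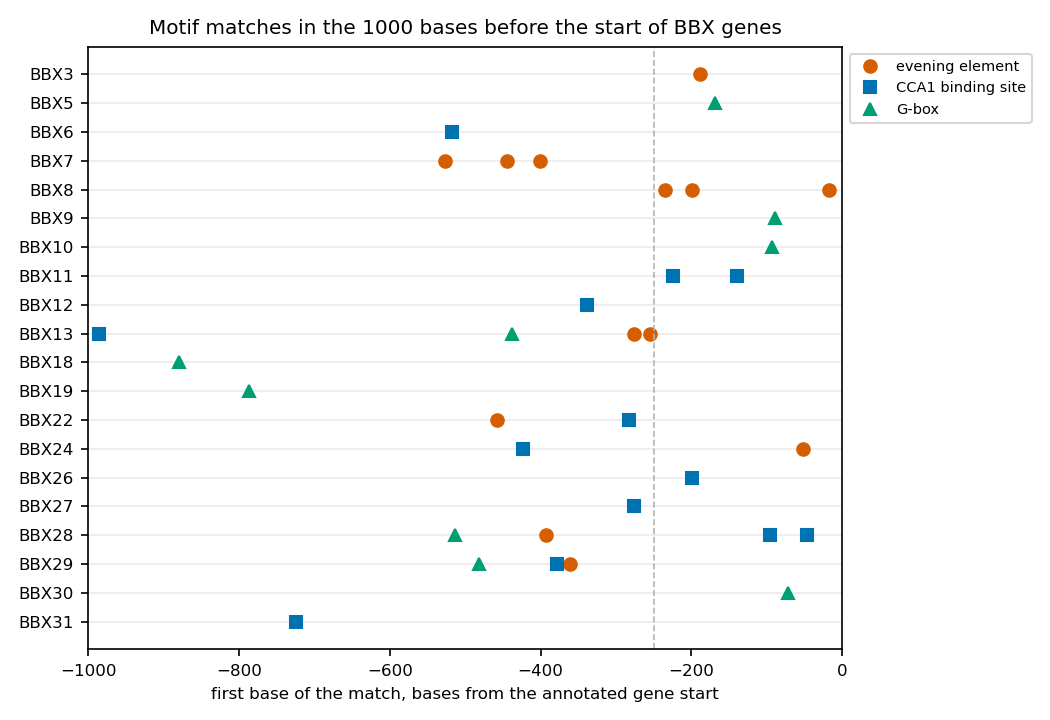
Position of motif matches in the 1000 bases before the annotated start of BBX genes, for the 20 members with a match of at least 1 of 3 motifs, with the distance of the first base of a match from the start on the horizontal axis. The dashed line marks 250 bases. BBX7 and BBX8 each show 3 evening elements, BBX13 shows 2, and the other 5 members with the element show 1.

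Among the other group II members, BBX11 and BBX13 were lower and BBX12 higher in memory plants without passing the threshold. BBX11, which promotes photomorphogenesis with HY5 and BBX21, was at 30.2, 50.7 and 37.8 CPM in plants 22, 23 and 24 and at 22.7, 21.7 and 23.6 CPM in plants 31, 32 and 33 (log2 fold change -0.80 ± 0.191 SE, with an edgeR adjusted p of 0.0579). BBX13 was at 13.1, 14.5 and 12.4 CPM in wild type and 5.98, 8.05 and 7.86 CPM in memory plants (log2 fold change -0.87 ± 0.227 SE, with an edgeR adjusted p of 0.0849). In both genes every wild-type plant was above every memory plant. BBX11 passed with no low-count filter (edgeR adjusted p = 0.0202), with DESeq2 (adjusted p = 0.0344) and without plant 22 or 23 (edgeR adjusted p = 0.0378 and 0.0451). BBX12 was at 15.5, 16.4 and 15.3 CPM and 20.7, 18.3 and 22.9 CPM (log2 fold change 0.39 ± 0.174 SE, with an edgeR adjusted p of 0.375). Over the 5 tested members of group II the median log2 fold change was -0.866, and their summed level was 86.0, 110.6 and 100.1 CPM in wild-type plants and 54.5, 54.1 and 63.8 CPM in memory plants.

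BBX14 (COL6, AT1G68520; TAIR10.1 chromosome 1, 25708175 to 25710989, minus strand) was the third member that fell. It was at 91.6, 96.7 and 66.8 CPM in wild-type plants 22, 23 and 24 and at 40.8, 41.0 and 46.9 CPM in memory plants 31, 32 and 33. Unlike BBX7 and BBX8 it was lowest in plant 24 among wild-type plants, and the groups were apart. The means were 85.0 ± 16.0 and 42.9 ± 3.47 CPM (SD, n = 3 each), with a log2 fold change of -0.99, an SE of 0.164 and an edgeR adjusted p of 0.0104. Without plant 31, 32 or 33 the call ended, at log2 fold changes of -0.95, -0.95 and -1.05 and edgeR adjusted p-values of 0.103, 0.0936 and 0.0729. BBX14 overlaps AT1G68510 on the other strand by 329 bases, and that locus had 0 reads in every plant.

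Its closest relative, BBX15, did not follow it. BBX15 was the highest member of the family, at 397, 570 and 395 CPM in wild type and 429, 401 and 422 CPM in memory plants (log2 fold change -0.12, 95% interval -0.49 to 0.25). BBX16 (COL7), which acts in shade responses and branching, was at 33.3, 58.6 and 29.6 CPM in wild type and 62.8, 55.3 and 57.8 CPM in memory plants (log2 fold change 0.54, edgeR adjusted p = 0.362). Plant 23 alone of the wild-type plants lay within the memory range. BBX17 showed the opposite order, with 19.1, 7.93 and 18.3 CPM in wild type, plant 23 again within the memory range, and 8.76, 7.64 and 10.4 CPM in memory plants (log2 fold change -0.76, edgeR adjusted p = 0.330).

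In group I no member was called in either direction. BBX2 (COL1) and BBX3 (COL2) are dawn-phased relatives of CO, and BBX2 overexpression is known to shorten the circadian period. BBX3 was at 32.0, 56.5 and 22.4 CPM in plants 22, 23 and 24 and at 81.4, 102.0 and 91.8 CPM in plants 31, 32 and 33. The groups were apart, and plant 23 was nearest to the memory plants. This gave a log2 fold change of 1.31 ± 0.298 (SE) and an edgeR adjusted p of 0.0774. BBX2 was at 42.8, 64.8 and 35.0 CPM and 85.7, 70.6 and 68.7 CPM (log2 fold change 0.66 ± 0.209 SE, with an edgeR adjusted p of 0.177), in the same order of wild-type plants. BBX4 (COL3), which promotes red-light responses and binds COP1, was at 193, 220 and 246 CPM and 181, 180 and 162 CPM (log2 fold change -0.34, edgeR adjusted p = 0.350). BBX5 (COL4) and BBX6 (COL5) overlapped between the groups, with 95% intervals of the log2 fold change of -0.56 to 0.18 and -0.38 to 0.19.

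BBX2 lies 3005 bases from CO on chromosome 5, with no locus wholly between them. It had 201 to 401 reads per plant, where CO had at most 3. The same contrast of neighbours was seen where BBX30 lies 284 bases from BBX9 and BBX31 486 bases from BBX10. BBX30 and BBX31 were read in every plant, with at least 16 reads, and BBX9 and BBX10 had 0 and 1 read in all. Whether reads of CO were lost to a locus that it overlaps on the other strand was not tested.

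Group IV holds members that promote and members that oppose light-driven development. BBX21 (STH2) and BBX22 (LZF1), which promote it together with HY5, overlapped between the groups, with 95% intervals of the log2 fold change of -0.68 to 0.16 and -0.64 to 0.06. BBX24 (STO) and BBX25 (STH) are known to oppose HY5. BBX25 was at 43.0, 56.5 and 38.8 CPM in wild type and 67.3, 73.6 and 71.2 CPM in memory plants (log2 fold change 0.62 ± 0.158 SE, with an edgeR adjusted p of 0.0774), with the groups apart. BBX24 overlapped, at 263, 305 and 236 CPM and 296, 305 and 275 CPM (log2 fold change 0.12, 95% interval -0.20 to 0.44). BBX19, which delays flowering by binding CO, was at 5.76, 8.31 and 6.09 CPM and 11.97, 13.9 and 15.03 CPM (log2 fold change 1.02 ± 0.239 SE, with an edgeR adjusted p of 0.0560). Its relative BBX18 was at 21.1, 31.3 and 27.0 CPM and 34.4, 39.4 and 44.2 CPM (log2 fold change 0.57, edgeR adjusted p = 0.154). Both were higher in each memory plant than in any wild-type plant.

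In group V, BBX30 (miP1b) and BBX31 (miP1a) encode microproteins that join CO to the corepressor TOPLESS (TPL). BBX30 was at 2.88, 5.99 and 6.96 CPM in wild type and 9.62, 9.05 and 10.6 CPM in memory plants (log2 fold change 0.88, edgeR adjusted p = 0.248). BBX31 was at 3.78, 5.61 and 2.78 CPM and 6.62, 7.04 and 8.32 CPM (log2 fold change 0.85, edgeR adjusted p = 0.290). Neither passed the threshold, although the groups were apart in both and each value rests on 16 to 46 reads. BBX28, which weakens DNA binding by HY5, was at 68.2, 76.0 and 75.2 CPM and 85.7, 85.3 and 80.2 CPM (log2 fold change 0.20, 95% interval -0.09 to 0.48). BBX27, BBX29 and BBX32, the last of which opposes light-driven development, had 95% intervals of -0.32 to 0.33, -0.70 to 0.54 and -0.97 to 0.86.

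Levels between genes were compared as CPM per kilobase of annotated exon. In wild type the highest was BBX15 (261 ± 57.8), followed by BBX24 (182 ± 23.4), BBX4 (170 ± 20.5), BBX6 (140 ± 2.24) and BBX5 (126 ± 23.7; SD, n = 3 each). In memory plants the order was BBX15 (240.2 ± 8.29), BBX24 (198 ± 10.2), BBX4 (135 ± 8.33), BBX6 (131 ± 6.69) and BBX5 (111 ± 16.1). The means of BBX24 and BBX4 in wild type, of BBX6 and BBX5 in wild type and of BBX4 and BBX6 in memory plants differed by less than the larger SD of each pair. On this scale BBX15 made up 20.7% of the family's total in wild type and 19.3% in memory plants, while BBX8 went from 0.826% to 0.17% and BBX3 from 1.28% to 3.27%. Summed over all 32 loci, reads made up 1762, 2224 and 1807 CPM in plants 22, 23 and 24 and 1904, 1894 and 1894 CPM in plants 31, 32 and 33.

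Ratios within a plant do not depend on how libraries are scaled. They were computed for the 9 closest pairs in which both members were tested, and compared by exact two-sided permutation tests, which with 3 against 3 plants cannot give a p under 0.1. The groups were apart in 4 of the 9 pairs (exact p = 0.1 each, adjusted over the 9 pairs p = 0.225), so none passed. The share of other gene pairs with groups apart was not computed, so whether 4 of 9 is unusual is not known. The log2 ratio of BBX12 to BBX13 was 0.24 ± 0.06 in wild type and 1.51 ± 0.30 in memory plants (SD, n = 3 each). For BBX14 to BBX15 it was -2.41 ± 0.26 and -3.28 ± 0.11, for BBX18 to BBX19 it was 1.98 ± 0.15 and 1.53 ± 0.02, and for BBX24 to BBX25 it was 2.55 ± 0.10 and 2.05 ± 0.09. The ratio of BBX7 to BBX8 overlapped between the groups, at -0.71 ± 0.25 and -0.30 ± 0.52. That of BBX30 to BBX31 overlapped as well, at 0.34 ± 0.88 and 0.42 ± 0.10.

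**Figure D4:**
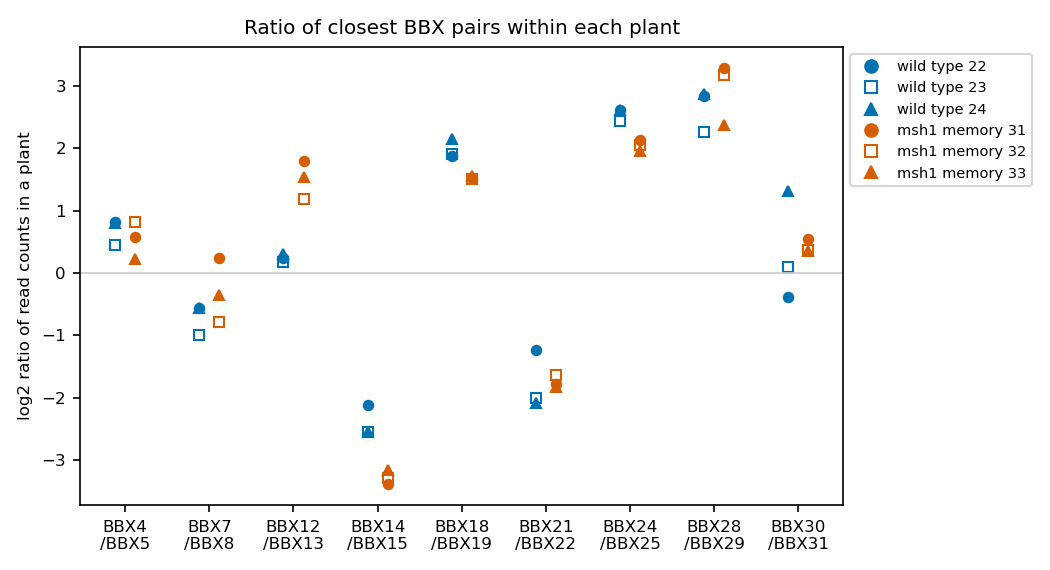
Log2 ratio of the read counts of 2 closest BBX relatives within each plant, wild type in blue and memory in orange, 1 symbol per plant. The groups are apart for BBX12/BBX13, BBX14/BBX15, BBX18/BBX19 and BBX24/BBX25 and overlap for the other 5 pairs.

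Sequence shared between members was shorter than a read. The coding sequences of closest pairs were 51.8% to 75.3% identical, 72.5% for BBX7 and BBX8, and the longest stretch that any 2 of the 496 pairs of transcripts shared without a mismatch was 35 bases, against reads of 150 bases. Overlapping loci are a separate limit, since the library kit does not mark strand and 13 of the 32 loci overlap another annotated locus. CO overlaps another annotated locus on the other strand over most of its length. Which locus was given the reads of that stretch was not tested, so low CO counts alone do not show that CO was silent. BBX2 lies wholly within AT5G15845 on the other strand, a locus with 0 to 6 reads. BBX8 overlaps AT5G48240 by 56 bases, and that locus had 48 to 102 reads per plant. BBX25 overlaps AT2G31390 by 48 bases, with 193 to 308 reads there. BBX7 overlaps no annotated locus.

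Leaving out wild-type plant 23 gave more member calls than leaving out any other plant. Calls over all tested loci rose as well, from 308 to 1019. Plant 23 was the highest wild-type plant in 20 of 26 tested members and the lowest in 2. The same count was not made over all tested loci, so it is not shown to be particular to the family. The leaf photosynthesis markers were also highest there, at 73248 CPM summed, against 56341 and 57930 CPM in plants 22 and 24 and 52611 to 65007 CPM in memory plants. Without plant 23, 11 of 26 members were called (42.3%), against 5.93% of all tested loci, 6 of them higher and 5 lower. The 3 called members all remained. Added were BBX2, BBX3, BBX16, BBX18, BBX19 and BBX25 as higher, with log2 fold changes of 0.95, 1.76, 0.90, 0.71, 1.20 and 0.79, and BBX11 and BBX17 as lower, with -0.58 and -1.06. Their edgeR adjusted p-values lay between 1.21e-06 (BBX3) and 0.0451 (BBX11). Why plant 23 differs was not tested.

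**Figure D5:**
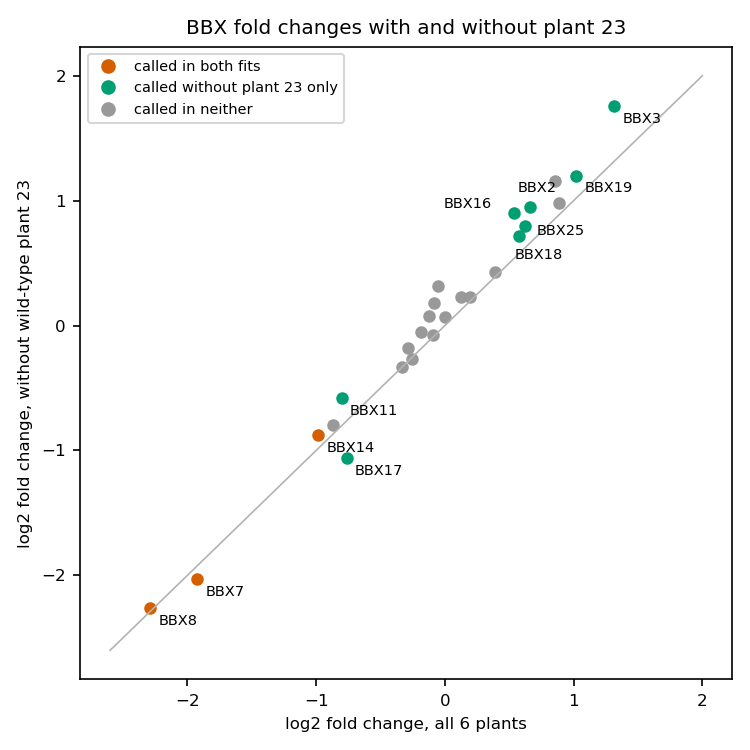
Log2 fold change of each tested BBX gene with all 6 plants (horizontal) and without wild-type plant 23 (vertical), with the line of equality. Orange points are called in both fits, green points only without plant 23, grey points in neither. Higher genes such as BBX3 move from 1.31 to 1.76, and BBX8 stays at -2.29 and -2.26.

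The pathways around the family were read from gene lists chosen with earlier results of these data known. Over all tested loci 0.449% were higher and 1.37% were lower. Of 13 tested regulators of CO, 2 fell and none rose, with a median log2 fold change of 0.119. GI, which works with FKF1 to relieve repression of CO, was at 180.5, 279 and 212 CPM in wild type and 98.9, 91.7 and 120 CPM in memory plants (log2 fold change -1.11 ± 0.182 SE, with an edgeR adjusted p of 0.00963). The GI call ended without memory plant 31, 32 or 33 (edgeR adjusted p = 0.100, 0.0950 and 0.0538). FKF1, a blue-light receptor, also fell (log2 fold change -3.71). Of 11 tested partners and targets of CO, 1 rose, the flowering integrator SOC1 (log2 fold change 0.71), with a list median of -0.003. SOC1 was called without plant 23 but not without any other plant (edgeR adjusted p = 0.0905 to 0.172). TPL, the partner of BBX30 and BBX31, is named after its values were seen and stood at 114 ± 10.9 and 136 ± 17.6 CPM (SD, n = 3 each; edgeR adjusted p = 0.552).

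None of the 11 tested genes of the COP1 and HY5 module was called by edgeR, with 1 at an unadjusted p under 0.05 and a median log2 fold change of 0.155. That gene was HYH, a homologue of HY5, at 7.38, 7.73 and 3.65 CPM in wild type and 12.2, 11.5 and 11.8 CPM in memory plants (log2 fold change 0.92, edgeR adjusted p = 0.162). Without plant 23, 2 genes of the module were called higher, HYH among them (log2 fold change 1.11, edgeR adjusted p = 0.0281), and the list median was 0.353. HY5 itself, named after its values were seen, was at 6.33 ± 0.662 and 6.17 ± 1.16 CPM. Of 13 light receptors and phytochrome-interacting factors none was called either, with 3 at an unadjusted p under 0.05 and a median of -0.123. DESeq2 called 2 of them lower, no low-count filter 1, leaving out plant 24 1 and leaving out plant 23 2, with a list median of 0.03 in the last case. The smallest p was that of PIF4, which promotes elongation growth, at 129, 198 and 119 CPM and 92.7, 80.1 and 87.6 CPM (log2 fold change -0.77, edgeR adjusted p = 0.0673). PIF4 passed with DESeq2 (adjusted p = 0.0085), with no low-count filter and without plant 23 or 24 (edgeR adjusted p = 0.0258, 0.0159 and 0.0379). Of 8 tested light-induced genes downstream of HY5, 1 rose, F3H (log2 fold change 1.20), and all 8 lay above 0, at a median log2 fold change of 0.790. The list summed to 252, 149 and 321 CPM in wild-type plants 22, 23 and 24 and to 469, 490 and 396 CPM in memory plants, so plant 23 was lowest. DFR and LDOX, pigment enzymes named after their values were seen, had 13 and 6 reads in plant 23 and at least 100 in every other plant. Without plant 23 the list median was 0.607, all 8 still lay above 0, and 2 were called. The F3H call ended without memory plant 31, 32 or 33 (edgeR adjusted p = 0.0865, 0.0822 and 0.0712).

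Of 13 tested clock genes 1 rose, 3 fell and 9 were not called, where 0.449% of all tested loci were higher and 1.37% were lower. LHY rose (log2 fold change 1.22), and PRR5 (-2.48), TOC1 and ELF3 fell, with a list median of 0.231. TOC1, an evening repressor of morning genes, was at 50.4, 57.2 and 61.1 CPM in wild type and 29.1, 15.1 and 19.6 CPM in memory plants (edgeR adjusted p = 0.00702). ELF3, a part of the evening complex and a partner of BBX19, was at 35.8, 36.3 and 33.9 CPM and 15.2, 16.7 and 20.8 CPM (edgeR adjusted p = 0.00925). In both genes the groups were apart. The ELF3 call ended without plant 31 or 32 (edgeR adjusted p = 0.0918 and 0.0780), and the LHY and TOC1 calls without plant 33 (0.0510 and 0.0849). Without plant 23, 7 of 14 tested clock genes rose and 5 fell, where 5.93% of all tested loci were called. The part of harvest time in the BBX values was not tested.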

How the data were processed

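Messenger RNA was sequenced from 3 wild-type and 3 msh1 memory plants. The deposited files hold raw read counts per locus, made by the authors, 1 file per plant. TAIR10 and DESeq2 are named in the submitters' processing notes. The sources used here do not say which aligner and counting program were used, or whether strand was.

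Counts were analysed in R 4.3.3. Loci were kept by filterByExpr of edgeR 4.0.16 (minimum count 10, minimum total 15), scaled by the trimmed mean of M values (TMM) and compared by the quasi-likelihood test (robust, two-sided). Benjamini-Hochberg adjustment ran over all 16928 tested loci, and an adjusted p under 0.05 was a call. CPM values are TMM-scaled. Each standard error (SE) is the log2 fold change over the root of its F statistic, and 95% intervals use the test's degrees of freedom. The procedure was tested on simulated data: with 200 of 16928 genes changed, 58% of the 100 genes changed 2-fold and 95% of the 100 genes changed 4-fold were called, with 16 false calls.

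Gene positions, exons, coding sequences and the bases before each gene start came from RefSeq's annotation and genome of TAIR10.1, which matched all 32 BBX loci. The alternatives were DESeq2 1.42.0, limma 3.58.1 (voom), other scalings, filters and thresholds, and leaving out each plant. Plants of 1 group differed by more than sampling noise in every pair (chi-square per degree of freedom at least 3.23). A planned comparison of protein sequences was not run. A closest pair is 2 members that are each other's best match in coding sequence (global alignment).

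Named are all 32 BBX loci and, from each gene list, up to 4 called genes with the smallest p, or the 1 tested gene with the smallest p where none was called. Genes named outside this rule are marked in the text. Results that leave out a plant of a group of 3 keep 2 plants there. The members and lists were chosen with earlier results of these data known.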

Additional observations from a re-analysis of the deposited data

How the results depend on the processing

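BBX7, BBX8 and BBX14 all remained called with DESeq2 size factors, library totals, no or a stricter low-count filter, DESeq2, voom and no robust estimation, and without plant 22, 23 or 24. With a threshold of 0.01 BBX7 and BBX8 remained, and with the 1.5-fold test 1 member, BBX8, was lower. Leaving out each plant gave 1 to 5 lower and 0 to 6 higher members, the highest counts without wild-type plant 23. Library totals, which moved the median log2 fold change of all genes from 0.008 to 0.074, called 3 members higher (BBX3, BBX19 and BBX25). No low-count filter called 1 (BBX19), and DESeq2, voom, no robust estimation and leaving out plant 24 called 1 each (BBX3). BBX11 was also lower with no low-count filter, with DESeq2 and without plant 22 or 23. The cause was not tested.

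For all genes called higher (76) and all genes called lower (232), the counts were 118 and 405 with DESeq2, 17 and 81 at a threshold of 0.01 and 9 and 35 with the 1.5-fold test, and 120 were higher without a low-count filter. Leaving out each plant gave 6 to 457 higher and 24 to 562 lower, the highest without plant 23. Of the list genes 11 were called, against 19 without a low-count filter, 26 with DESeq2, 17 without robust estimation, 7 at a threshold of 0.01, 3 with the 1.5-fold test and 3 to 30 with a plant left out. A window of 1000 bases in place of 250 raised the members with an evening element from 3 to 8, a CCA1 site from 3 to 11, a G-box from 4 to 9 and an ACGT core from 14 to 25.

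Uncalled fold changes near 0 turned sign: BBX27 to -0.0048 (no filter) and -0.0020 (DESeq2), BBX29 to 0.0018 and BBX32 to 0.030 (library totals), and BBX32 to 0.026 (voom). With a plant left out, log2 fold changes ranged from -0.21 to 0.080 for BBX15, -0.080 to 0.071 for BBX27, -0.38 to 0.18 for BBX29, -0.38 to 0.31 for BBX32, -0.30 to 0.61 for the flower marker AG and -0.060 to 0.91 for the root marker GL2. Differences in CO and the other 5 members with at most 3 reads could not be detected from these counts. No paired analysis was possible because wild-type and memory plants carry different numbers.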
